A study of Homo sapiens with 10 samples.

Results

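The 44 genes described here act at the G1/S transition and in DNA replication, and were taken by name from a table of 20289 genes. All 44 were found there, all reached at least 1 FPKM in every library, and all passed the filter on low values that left 13077 genes for testing. They came from 10 RNA libraries of CFPAC-1 and PANC-1, human cell lines of pancreatic ductal adenocarcinoma. CFPAC-1 was given 10 µM imidazole ketone erastin (IKE, 2 libraries) or 0.1% DMSO, the solvent (2 libraries). PANC-1 was given 1 µM IKE (4 libraries) or 0.1% DMSO (2 libraries). IKE, made from erastin, stops cells from importing cystine and can bring on ferroptosis, in which iron-driven peroxidation of lipids kills the cell. All groups were cultured for 24 h after the addition, and since dead cells and debris were removed, only surviving cells were measured. The series looks for regulators of ferroptosis in this cancer. A change within cells and a choice of which cells survived cannot be told apart, nor can line and dose where the responses of the lines are compared.

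Cells commit to division in G1, when cyclin D with CDK4 or CDK6, and then cyclin E with CDK2, release E2F transcription factors from the retinoblastoma protein. E2F factors switch on the genes for copying DNA. Origins are licensed when ORC, CDC6 and CDT1 load the MCM2 to MCM7 helicase, which CDC45 and the GINS complex then activate. PCNA, its loader RFC, the polymerases and the ligase copy the strands, while RRM1, RRM2, TYMS and TK1 supply deoxynucleotides. Continued division and loss of the brakes on CDK4 and CDK6 are well known in pancreatic cancer.

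Promoter sequence was a feature that the choice of genes did not use, and it is shown for genes on which the results below turn: TYMS and CDK6, at the ends of the difference between the lines, CDT1 and TK1, at the ends of the IKE responses, and E2F1, an E2F factor itself. RefSeq promoter windows (GRCh38.p14, 250 bases before to 50 after a start) were matched for 37 of the 44 genes, in 49 windows. They were searched on both strands for the E2F letters TTTCCCGC, TTTGGCGC, TTTCGCGC and TTTGCCGC, for CCAAT, and for the CHR letters TTTGAA, an element of mitotic genes. E2F letters were found in 20 of the 37 genes (54.1%), against 6.77% of the 10483 tested genes with a window and 3.31% of all 35116 windows. CCAAT was found in 22 of the 37 (59.5%), against 43.4% of tested genes, and the CHR letters in 1 (2.70%), against 13.9%. E2F and CCAAT matches overlapped in 1 window, and E2F matches overlapped each other in 2. Of the 28 E2F matches, 17 began within the 100 bases before the start. These are matches of letters, with no measurement of binding. The 150 bases before the start are printed 5′ to 3′ along the gene's strand, with E2F letters and CCAAT, in either orientation, in capitals.
TYMS (chr18:657503-657652, plus strand): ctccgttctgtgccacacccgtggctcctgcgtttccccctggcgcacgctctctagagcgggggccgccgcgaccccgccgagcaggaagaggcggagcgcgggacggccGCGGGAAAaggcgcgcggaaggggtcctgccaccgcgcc
CDT1 (chr16:88803639-88803788, plus strand): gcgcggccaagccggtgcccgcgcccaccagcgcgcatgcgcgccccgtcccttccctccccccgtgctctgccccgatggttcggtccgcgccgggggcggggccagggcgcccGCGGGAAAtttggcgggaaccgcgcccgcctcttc
E2F1 (chr20:33686386-33686535, minus strand): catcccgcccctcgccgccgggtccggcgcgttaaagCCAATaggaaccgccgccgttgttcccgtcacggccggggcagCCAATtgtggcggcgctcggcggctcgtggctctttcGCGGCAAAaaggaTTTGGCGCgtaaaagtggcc
TK1 (chr17:78187053-78187202, minus strand): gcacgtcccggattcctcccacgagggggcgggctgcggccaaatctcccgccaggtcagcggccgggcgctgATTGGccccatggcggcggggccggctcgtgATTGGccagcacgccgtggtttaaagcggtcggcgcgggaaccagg
CDK6 (chr7:92836574-92836723, minus strand): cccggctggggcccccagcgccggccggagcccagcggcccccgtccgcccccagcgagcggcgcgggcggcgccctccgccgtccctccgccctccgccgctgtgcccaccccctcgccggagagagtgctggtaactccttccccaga
TYMS and CDT1 held 1 E2F match each and E2F1 held 2, while TK1 held only CCAAT and CDK6 none of the letters searched.

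Expression was given as FPKM, which divides fragments by transcript length and by the library's mapped total, so levels can be compared between genes. FPKM summed to between 405937 and 472665 per library, mitochondrial genes made up 2.65% to 5.27% of it with the top share in PANC-1 IKE replicate 3, and read depth is unknown. The epithelial keratin genes KRT8 and KRT18 reached at least 1239 FPKM in every library. Other epithelial and ductal markers were lower in PANC-1 than in CFPAC-1. EPCAM measured 8.58 to 11.1 FPKM in PANC-1 and 152 to 158 FPKM in CFPAC-1. KRT7 measured 4.39 to 6.15 FPKM in PANC-1 and 271 to 330 FPKM in CFPAC-1, and KRT19, CDH1 and SOX9 were lower too. Of mesenchymal markers, VIM and ZEB1 were higher in PANC-1 and CDH2 was lower. Of 13 markers of other cell types, 10 stayed under 1 FPKM throughout, and HBB of erythroid cells was listed at 0. The others were CD14 and PECAM1, seen mainly in CFPAC-1, and COL1A1, seen mainly in PANC-1. The 13 summed to 36.7 to 40.0 FPKM with IKE and 36.8 to 41.9 FPKM with DMSO in CFPAC-1, and to 18.7 to 26.1 FPKM with IKE and 23.7 to 23.8 FPKM with DMSO in PANC-1. The 44 genes lie on 17 chromosomes, and 21 of them overlap another annotated gene, whose reads may be shared.

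The first question was how these genes stood in the CFPAC-1 survivors of 10 µM IKE. No member passed the test: at an adjusted p under 0.05 limma called 0 of 44 as higher, where 0.864% of all tested genes were, and 0 as lower, where 0.459% were (1.32% in either direction). At an unadjusted p under 0.05, limma had 8 lower (18.2%, against 7.10% of all genes) and 1 higher (2.27%, against 6.50%). Log2 fold changes of FPKM + 1, a scale that understates changes of low genes, ran from -0.37 to 0.40 with a median of -0.09, against a median of 0 over all genes, and 33 of 44 were below 0, against 49.9% of all genes. The 95% confidence interval of each of the 44 lay within a 2-fold change in either direction, and that of 42 within a 1.5-fold change. Most genes had such intervals: of all 13077 tested, 12883 lay within 2-fold and 11456 within 1.5-fold. In 20 genes (45.5%) both IKE libraries lay below both DMSO libraries, against 23.9% of all genes, and in 5 (11.4%) both lay above, against 23.0%.

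Among the licensing genes the loader CDT1 had the smallest p in CFPAC-1. CDT1 (ENSG00000167513) measured 13.3 and 14.3 FPKM with IKE, against 10.5 and 9.91 FPKM with DMSO. Its groups did not overlap, and the mean was 13.8 ± 0.707 FPKM with IKE and 10.2 ± 0.438 FPKM with DMSO (SD, n = 2 each). The log2 fold change was 0.40 with an SE of 0.10 and an adjusted p of 0.0785 (limma). That p ranged from 0.0446 to 0.385 over the alternatives, with CDT1 called as higher when PANC-1 IKE replicate 2 was left out (0.0446) and with quantile normalization. GMNN, which encodes the CDT1 inhibitor geminin, measured 16.3 and 17.3 FPKM with IKE, against 17.9 and 18.3 FPKM with DMSO. The ratio of mean CDT1 to mean GMNN was therefore 0.823 with IKE, against 0.566 with DMSO, though neither gene was called with all libraries. In PANC-1 the same ratio hardly differed, at 0.463 with IKE, against 0.455 with DMSO. ORC6, a subunit of the origin recognition complex, measured 7.70 and 7.86 FPKM with IKE, against 6.99 and 6.97 FPKM with DMSO (log2 fold change 0.14, adjusted p = 0.527). The 6 genes of the MCM2 to MCM7 helicase differed little. Their summed level was 197 and 199 FPKM with IKE, against 214 and 200.3 FPKM with DMSO, and MCM7, with 46.7 and 47.0 FPKM against 53.2 and 52.6 FPKM, was their only member at an unadjusted p under 0.05.

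Genes of nucleotide supply were the role group with the lowest median in CFPAC-1, at -0.25. Limma called 0 of these 4 genes, where 1.32% of all tested genes were called in either direction. RRM2, the small subunit of ribonucleotide reductase, measured 49.3 and 51.9 FPKM with IKE, against 61.2 and 61.8 FPKM with DMSO (log2 fold change -0.28, SE 0.07, adjusted p = 0.0791, limma). RRM2 was called when PANC-1 IKE replicate 2 was left out (adjusted p = 0.0301, in a range of 0.0301 to 0.347). RRM1, the large subunit, measured 23.6 and 21.6 FPKM with IKE, against 27.3 and 26.4 FPKM with DMSO (-0.24, adjusted p = 0.139). Thymidylate synthase TYMS measured 22.4 and 23.4 FPKM with IKE, against 27.8 and 27.7 FPKM with DMSO (-0.27, adjusted p = 0.184). In these 3 genes every IKE library was below every DMSO library, while thymidine kinase TK1 overlapped, with 38.1 and 34.0 FPKM with IKE against 36.9 and 38.0 FPKM with DMSO. The GINS subunit GINS1 measured 6.66 and 6.79 FPKM with IKE, against 8.17 and 9.19 FPKM with DMSO (-0.32, adjusted p = 0.157), and GINS4 had the lowest log2 fold change of the 44 (-0.37, adjusted p = 0.218). RFC3, of the clamp loader, measured 10.1 and 10.1 FPKM with IKE, against 11.8 and 12.2 FPKM with DMSO (-0.23, adjusted p = 0.255). The cyclin E partner CDK2 measured 15.2 and 15.6 FPKM with IKE, against 18.7 and 16.8 FPKM with DMSO (-0.20, or -0.12 without DMSO replicate 1; adjusted p = 0.402). UHRF1, which keeps DNA methylation through replication, measured 15.6 and 15.7 FPKM with IKE, against 17.2 and 16.3 FPKM with DMSO (-0.09, or -0.051 without DMSO replicate 1; adjusted p = 0.713).

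**Figure D1:**
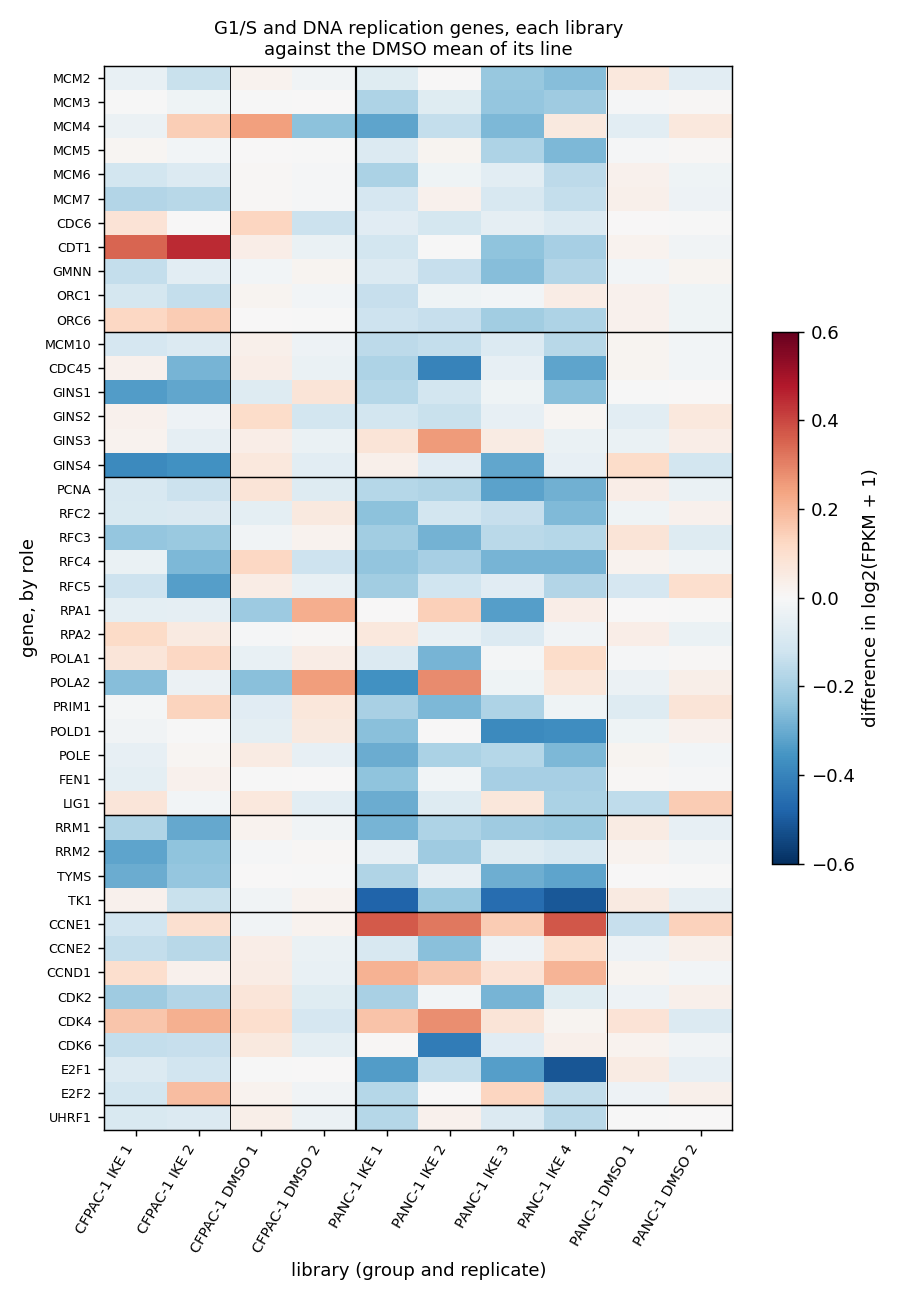
Difference in log2(FPKM + 1) of each library from the DMSO mean of its line, for the 44 genes ordered by role, with libraries in columns. Blue prevails in the PANC-1 IKE columns, most of all for TK1, and CDT1 in CFPAC-1 IKE is the deepest red.

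In PANC-1 the survivors of 1 µM IKE were set against DMSO. TK1 fell, and it was the only member called, 1 of 44 lower (2.27%) where 1.17% of all tested genes were, and 0 higher where 1.21% were (2.38% in either direction). TK1 (ENSG00000167900, chr17:78174075-78187233, GRCh38), which salvages thymidine and follows the cell cycle closely, measured 44.7, 53.7, 45.4 and 43.8 FPKM with IKE, against 65.1 and 60.4 FPKM with DMSO. Every IKE library was below both DMSO libraries, with a mean of 46.9 ± 4.58 FPKM with IKE (SD, n = 4) and 62.8 ± 3.33 FPKM with DMSO (SD, n = 2). The log2 fold change was -0.42 with an SE of 0.09 and an adjusted p of 0.0296 (limma). The call did not hold throughout. Its p reached 0.128 with IKE replicates 1 and 2 alone and 0.267 without DMSO replicate 1, and the range over the alternatives was 0.00514 to 0.267, while the sign held in each of them. Leaving out a single DMSO library of either line, or PANC-1 IKE replicate 1, 3 or 4, took the count of members called lower to 0. Calls over all genes moved as well: with 1 library left out at a time, 0.0536% to 2.28% were called lower, against 1.17% with all libraries. Leaving out PANC-1 IKE replicate 2 took it to 5, namely E2F1, MCM3, POLD1, TK1 and TYMS, where 2.28% of all genes were called lower.

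Values below those with DMSO were common in PANC-1. They were least common among the cyclins, kinases and factors, with 5 of 8 log2 fold changes below 0. At an unadjusted p under 0.05, 14 of 44 were lower (31.8%, against 9.25% of all genes) and 2 higher (4.55%, against 8.37%). The median log2 fold change was -0.14, against -0.01 over all genes, and 40 of 44 values (90.9%) were below 0, against 51.7% of all genes. In 18 genes (40.9%) all IKE libraries lay below both DMSO libraries, against 13.6% of all genes, and in 2 (4.55%) all lay above, against 12.3%. The confidence intervals of all 44 lay within a 2-fold change, and those of 43 within 1.5-fold, against 12958 and 11933 of all 13077 tested genes. In bulk libraries fewer cells in S phase and less of these RNAs per cell cannot be told apart. The 10 marker genes of mitosis were low beside them: all 10, among them CCNB1, TOP2A and MKI67, had every IKE library below every DMSO library in both lines, where 4.85% of all genes did. Limma called 7 of the 10 as lower in each line, where 0.459% of all genes were called lower in CFPAC-1 and 1.17% in PANC-1. How these calls held over the alternatives, or with a library left out, was not examined. The 10 were chosen with earlier results of these data known, so these counts describe them and are no test of a list. Their summed level in PANC-1 was 574 to 654 FPKM with IKE, against 793 and 813 FPKM with DMSO, and in CFPAC-1 471 and 496 FPKM with IKE, against 626 and 672 FPKM with DMSO. Their part in the values of the replication genes was not tested.

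**Figure D2:**
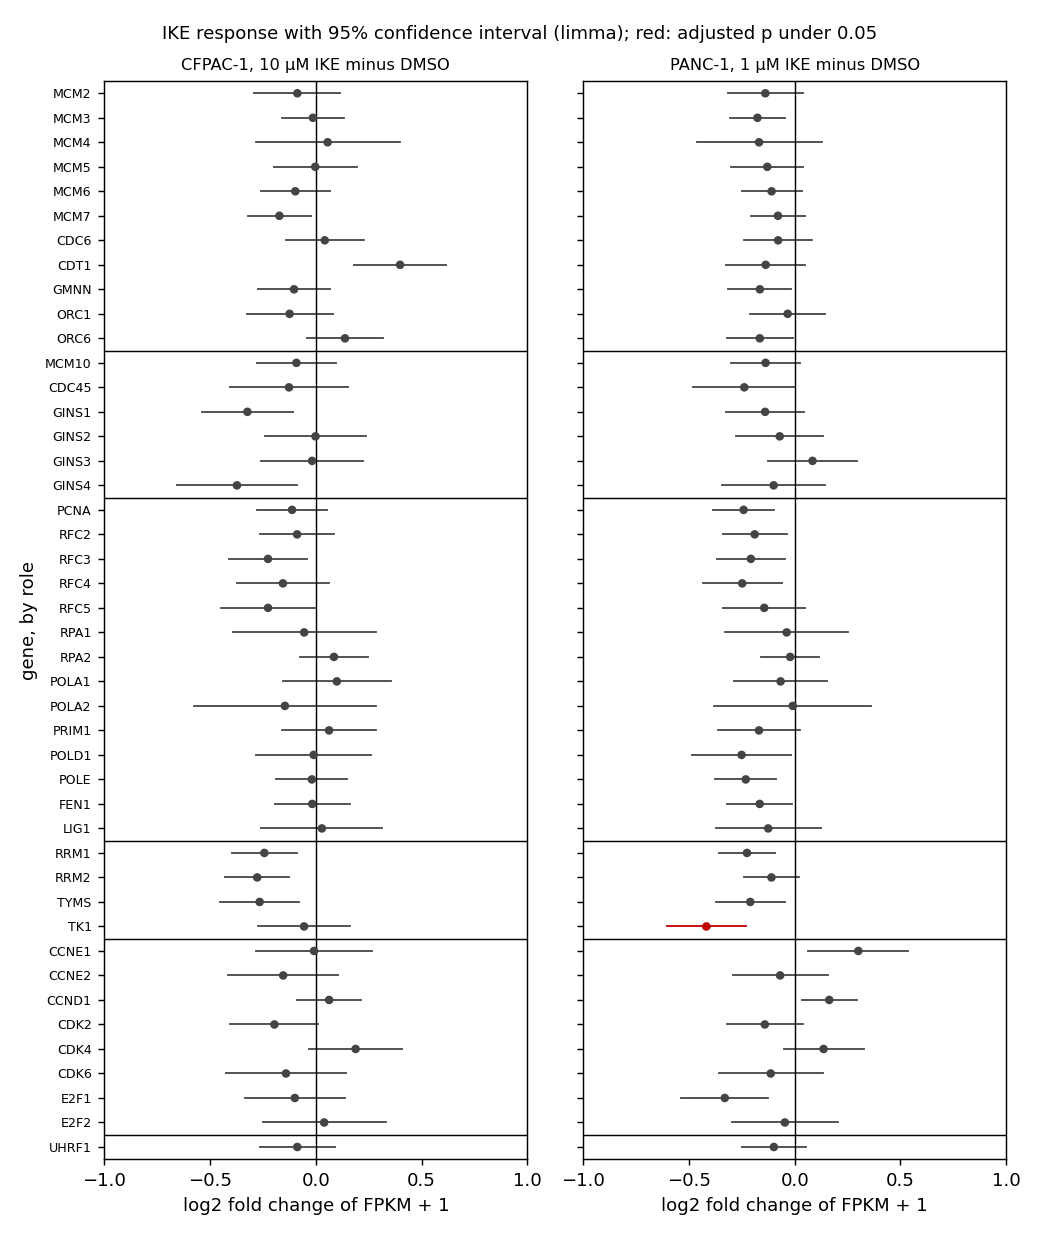
Log2 fold change of FPKM + 1 with its 95% confidence interval for each gene, IKE minus DMSO, in CFPAC-1 (left) and PANC-1 (right), from limma. TK1 in PANC-1, at -0.42, is the only gene drawn in red for an adjusted p under 0.05, and 40 of 44 PANC-1 points are left of 0.

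At the replication fork PCNA, the sliding clamp, measured 143, 142, 128 and 131 FPKM in PANC-1 with IKE, against 165 and 156 FPKM with DMSO. Its groups did not overlap (log2 fold change -0.24, adjusted p = 0.0839, limma). The p ranged from 0.0403 to 0.465 over the alternatives. POLE, the leading-strand polymerase, measured 26.4, 28.6, 28.9 and 27.0 FPKM with IKE, against 33.1 and 32.3 FPKM with DMSO (-0.23, adjusted p = 0.0951). All 14 fork genes had a log2 fold change below 0, where 51.7% of all tested genes did, and their median was -0.17. Limma called 0 of the 14, where 2.38% of all tested genes were called in either direction. A group this small cannot be set apart from that share by a count of 0. POLA2 of the primase complex was the least repeatable gene, with 21.7 to 34.5 FPKM among the 4 IKE libraries. MCM3 had the smallest p among licensing genes in PANC-1, with 72.2, 78.3, 69.8 and 70.8 FPKM with IKE against 82.0 and 82.5 FPKM with DMSO (-0.18, adjusted p = 0.147). The helicase cofactor CDC45 measured 19.2, 16.4, 21.2 and 17.4 FPKM with IKE, against 22.2 and 21.7 FPKM with DMSO (-0.24, adjusted p = 0.288). In both genes the IKE libraries all lay below the DMSO libraries. The summed level of MCM2 to MCM7 was 389, 425, 383 and 393 FPKM with IKE, against 437 and 433 FPKM with DMSO.

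**Figure D3:**
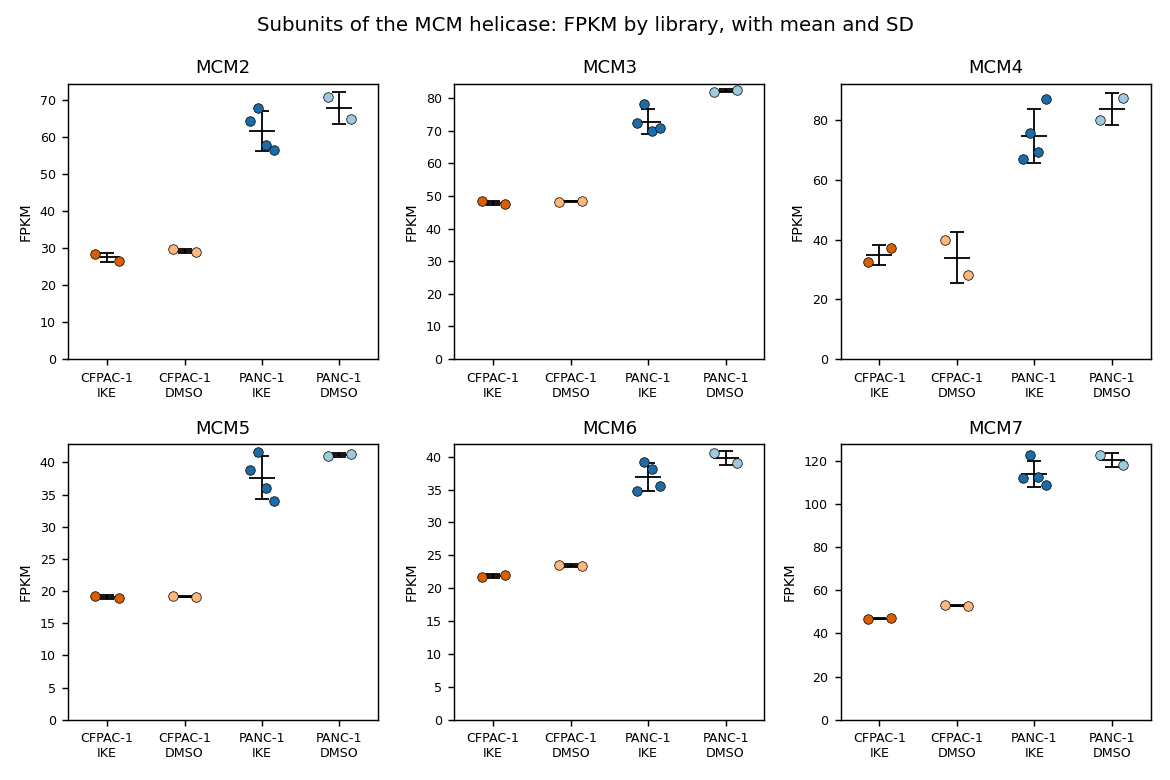
FPKM of the 6 MCM helicase genes by library, with the mean and SD of each group (n = 2 for CFPAC-1 IKE, CFPAC-1 DMSO and PANC-1 DMSO, n = 4 for PANC-1 IKE). The step between the lines exceeds any difference between IKE and DMSO within a line, and MCM4 varies most between replicates.

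The remaining nucleotide genes in PANC-1 were each lower in all IKE libraries without passing the test. RRM1 measured 68.1, 72.7, 71.4 and 70.9 FPKM with IKE, against 85.8 and 80.0 FPKM with DMSO (log2 fold change -0.23, adjusted p = 0.0816, limma). TYMS measured 113, 123, 104 and 102 FPKM with IKE, against 128 and 127 FPKM with DMSO (-0.21, adjusted p = 0.169). RRM2 measured 119, 106, 117 and 115 FPKM with IKE, against 125 and 122 FPKM with DMSO (-0.11, adjusted p = 0.376). Across both lines, 10 of 44 genes (22.7%), against 4.85% of all genes, had every IKE library below every DMSO library: MCM10, GMNN, GINS1, PCNA, RFC2, RFC3, RRM1, RRM2, TYMS and E2F1.

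The cyclins, kinases and factors upstream of replication were mixed in PANC-1. E2F1, an activator of S phase genes, measured 20.2, 23.3, 20.3 and 17.7 FPKM with IKE, against 26.7 and 24.9 FPKM with DMSO (log2 fold change -0.33, SE 0.09, adjusted p = 0.0924, limma). CCNE1, which encodes cyclin E1, measured 13.5, 13.0, 11.5 and 13.5 FPKM with IKE, against 9.20 and 11.4 FPKM with DMSO (0.30, SE 0.11, adjusted p = 0.175), and its log2 fold change was 0.16 without DMSO replicate 1 and 0.44 without DMSO replicate 2. CCND1, which encodes cyclin D1, measured 74.5, 72.0, 68.1 and 74.4 FPKM with IKE, against 65.1 and 63.6 FPKM with DMSO (0.16, SE 0.06, adjusted p = 0.1798). CCNE1 and CCND1 were the 2 genes whose IKE libraries all lay above the DMSO libraries. The cyclin D partner CDK4 measured 92.8, 100.04, 86.9 and 83.0 FPKM with IKE, against 87.1 and 77.5 FPKM with DMSO, and these overlapped (0.14, adjusted p = 0.452). Its log2 fold change was 0.22 without DMSO replicate 1 and 0.054 without DMSO replicate 2, and lay between them, over 1.5 times smaller than with all libraries, without IKE replicate 2. UHRF1 measured 32.0, 36.8, 34.1 and 32.2 FPKM with IKE, against 36.1 and 36.2 FPKM with DMSO (-0.10, adjusted p = 0.515), and replicate 2 exceeded both DMSO libraries.

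**Figure D4:**
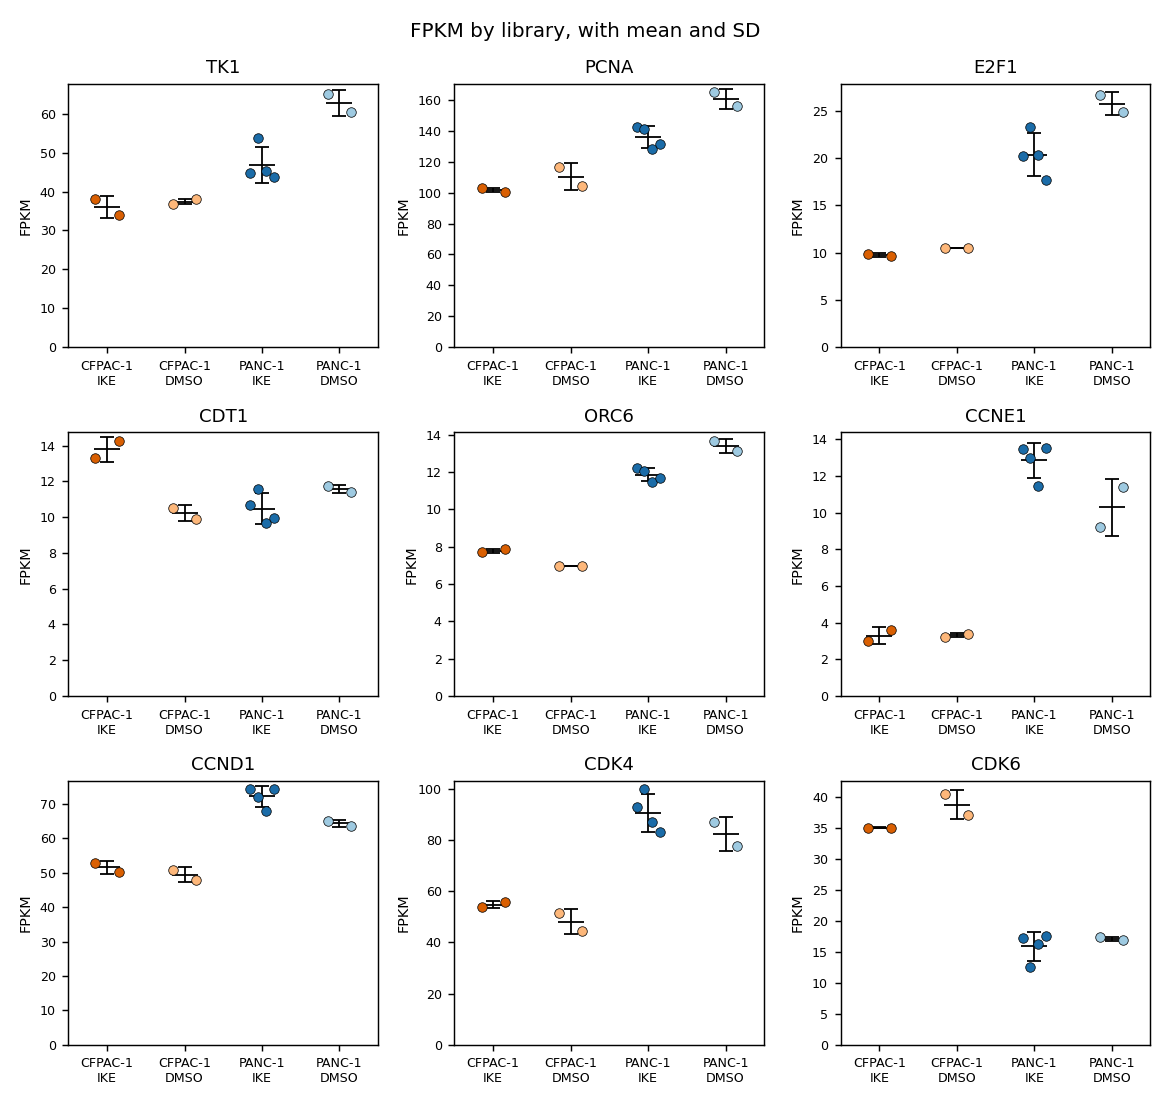
FPKM of 9 genes by library, with the mean and SD of each group (n = 2 for CFPAC-1 IKE, CFPAC-1 DMSO and PANC-1 DMSO, n = 4 for PANC-1 IKE). TK1, PCNA and E2F1 lie lower with IKE in PANC-1, CDT1 lies higher with IKE in CFPAC-1, and CDK6 is higher in CFPAC-1 than in PANC-1.

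The difference of the responses, PANC-1 minus CFPAC-1, was tested in the same model. Limma called 0 of 44 members in either direction, where 0.336% of all genes were called (0.229% lower), and at an unadjusted p under 0.05 there were 3 lower (6.82%, against 6.52% of all genes) and 0 higher (against 5.83%), so the lower share was close to that of all genes. The 3 were CDT1 (-0.54, SE 0.13, adjusted p = 0.135), TK1 (-0.36, SE 0.13, adjusted p = 0.300) and ORC6 (-0.30, SE 0.11, adjusted p = 0.295). In PANC-1 ORC6 measured 12.2, 12.1, 11.5 and 11.7 FPKM with IKE, against 13.7 and 13.2 FPKM with DMSO, and so lay below, where in CFPAC-1 it lay above. CDT1 in PANC-1 measured 10.7, 11.6, 9.67 and 9.98 FPKM with IKE, against 11.8 and 11.4 FPKM with DMSO, and overlapped. The intervals of the difference lay within 1.5-fold for 37 of 44 genes, against 9009 of all 13077 tested genes. A p that missed the threshold does not show that the lines responded alike.

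The lines themselves stood far apart without drug. In PANC-1 with DMSO, 36 of 44 genes were higher than in CFPAC-1 with DMSO (81.8%, against 43.4% of all tested genes), 3 were lower (6.82%, against 35.2%) and 5 were not called, where 78.7% of all genes were called in either direction. In 5 genes (11.4%) both PANC-1 libraries lay below both CFPAC-1 libraries, against 40.3% of all genes, and in 38 (86.4%) both lay above, against 49.0%. The median log2 fold change was 0.81, against 0.12 over all genes, so the members' median stood 0.69 above that of all genes. Scaling by median ratios moved the median of all genes to -0.01 and left the members 0.69 above it, with the same number, 36, called higher. The p-values rest on a spread between replicates pooled over all 10 libraries, IKE libraries among them. Each line had 2 libraries in this comparison, and other lines were not measured. Other-cell markers differed too, with a summed level of 23.7 and 23.8 FPKM in PANC-1 and 36.8 and 41.9 FPKM in CFPAC-1, and their part in the result was not tested.

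**Figure D5:**
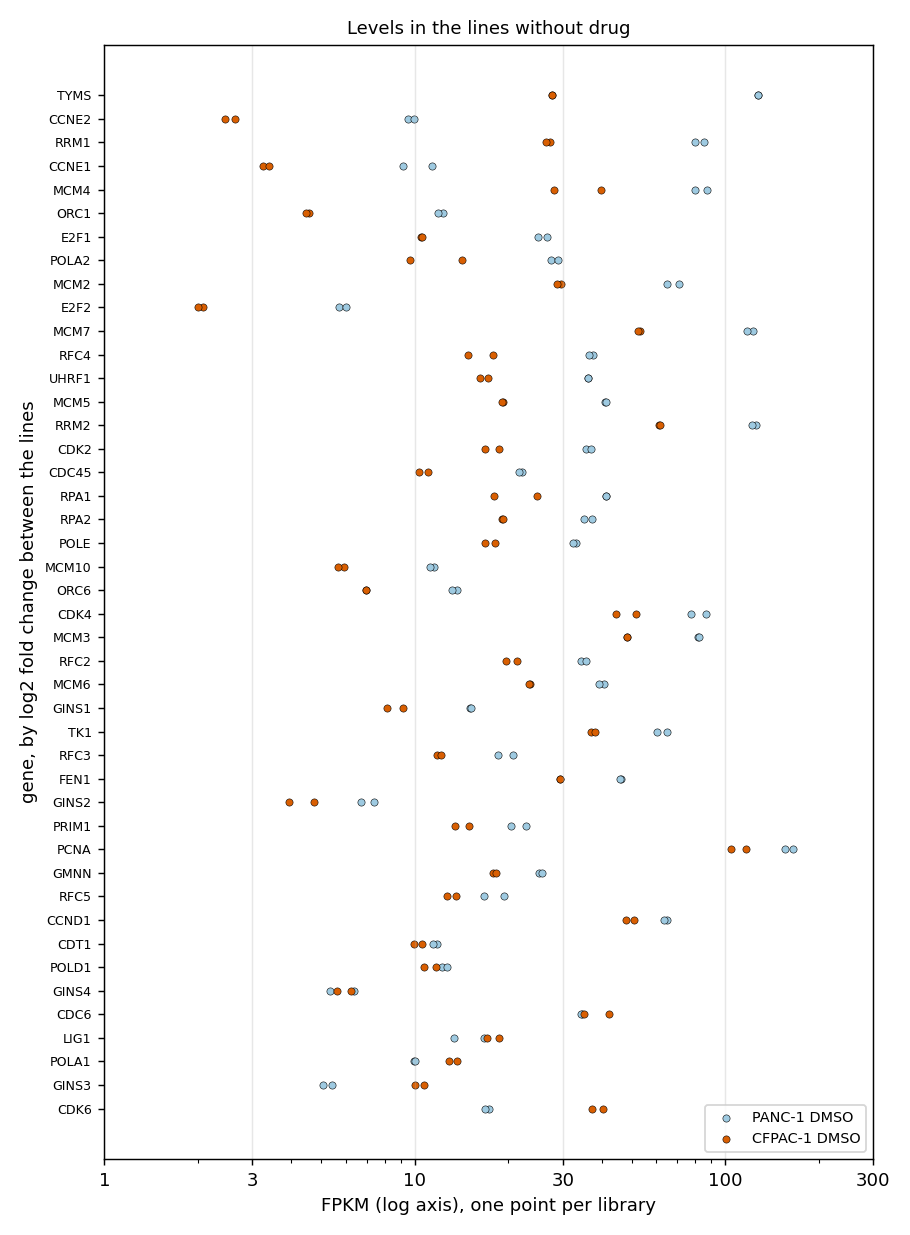
FPKM with DMSO on a log axis, a point per library, for the 44 genes sorted by the log2 fold change between the lines, with PANC-1 in blue and CFPAC-1 in orange. Most PANC-1 points lie right of the CFPAC-1 points, TYMS at the top by the widest gap, and CDK6, GINS3 and POLA1 at the bottom are reversed.

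Nucleotide supply differed most by role, with a median log2 fold change of 1.29 and all 4 genes called higher, where 43.4% of all tested genes were. TYMS (ENSG00000176890, chr18:657604-673578) measured 128 and 127 FPKM in PANC-1, against 27.8 and 27.7 FPKM in CFPAC-1 (log2 fold change 2.16, SE 0.09, adjusted p = 6.32e-10, limma). ENOSF1, which overlaps TYMS on the other strand, measured 10.9 and 12.6 FPKM in PANC-1, against 7.07 and 10.1 FPKM in CFPAC-1 (0.43, adjusted p = 0.0245). RRM1 measured 85.8 and 80.0 FPKM in PANC-1, against 27.3 and 26.4 FPKM in CFPAC-1 (1.59, SE 0.07, adjusted p = 1.76e-09). Replicates of these genes agreed closely beside a step between the lines of 3.08-fold in mean FPKM for RRM1 and 4.61-fold for TYMS.

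Of the licensing genes, 9 of 11 were higher in PANC-1 and 0 lower, where 43.4% of all tested genes were higher and 35.2% lower. ORC1, the largest subunit of the origin recognition complex, measured 12.3 and 11.9 FPKM in PANC-1, against 4.58 and 4.45 FPKM in CFPAC-1 (log2 fold change 1.25, SE 0.09, adjusted p = 1.67e-07, limma). MCM4 measured 80.0 and 87.5 FPKM in PANC-1, against 39.9 and 28.03 FPKM in CFPAC-1, where its replicates were among the most spread (1.296, SE 0.16, adjusted p = 1.10e-05). All 6 of MCM2 to MCM7 were higher in PANC-1, by 0.74 to 1.296 on the log2 scale. Their products join in equal numbers, yet the mean FPKM of the most abundant, MCM7, exceeded that of the lowest 3.02-fold in PANC-1 and 2.76-fold in CFPAC-1. CDC6 and CDT1 were not called, with 34.5 and 34.3 FPKM in PANC-1 against 42.4 and 35.2 FPKM in CFPAC-1 for CDC6, and 11.8 and 11.4 FPKM against 10.5 and 9.91 FPKM for CDT1. Of the fork genes, 11 of 14 were higher and 1 lower, and of the helicase activators 4 of 6 were higher and 1 lower. The shares of all genes are the same 43.4% and 35.2%, and groups this small cannot be set firmly apart from them.

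The lower genes in PANC-1 belonged to different roles. GINS3 measured 5.07 and 5.40 FPKM in PANC-1, against 10.7 and 10.0 FPKM in CFPAC-1 (log2 fold change -0.86, adjusted p = 1.87e-05, limma), while its partner GINS1 was higher in PANC-1. POLA1, the catalytic subunit of polymerase alpha, measured 9.94 and 10.1 FPKM in PANC-1, against 12.9 and 13.7 FPKM in CFPAC-1 (-0.38, SE 0.12, adjusted p = 0.0105). With CFPAC-1 DMSO replicate 2 left out, POLA1 was not called (adjusted p = 0.0640, in a range of 0.00200 to 0.0640). Its partner POLA2 was higher in PANC-1. The third was CDK6 (ENSG00000105810, chr7:92604921-92836594), with 17.4 and 16.9 FPKM in PANC-1, against 40.5 and 37.2 FPKM in CFPAC-1 (-1.13, SE 0.13, adjusted p = 7.24e-06). Its paralogue CDK4 went the other way, with 87.1 and 77.5 FPKM in PANC-1, against 51.5 and 44.6 FPKM in CFPAC-1 (0.76, SE 0.10, adjusted p = 2.19e-05). The ratio of mean CDK4 to mean CDK6 was 4.80 in PANC-1 with DMSO, against 1.24 in CFPAC-1 with DMSO.

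The cyclin E genes were low in CFPAC-1. CCNE1 measured 9.20 and 11.4 FPKM in PANC-1, against 3.24 and 3.38 FPKM in CFPAC-1 (log2 fold change 1.38, SE 0.12, adjusted p = 9.18e-07, limma). CCNE2 measured 9.51 and 9.93 FPKM in PANC-1, against 2.63 and 2.44 FPKM in CFPAC-1 (1.60, SE 0.12, adjusted p = 1.57e-07). CCND1 differed less, with 65.1 and 63.6 FPKM in PANC-1, against 50.9 and 47.9 FPKM in CFPAC-1 (0.38, SE 0.07, adjusted p = 3.42e-04). E2F1 measured 26.7 and 24.9 FPKM in PANC-1, against 10.5 and 10.5 FPKM in CFPAC-1 (1.22, SE 0.11, adjusted p = 7.70e-07).

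A further 74 genes of G1/S control and replication, listed apart from the members, gave 73 tested genes. They too were chosen with earlier results of these data known. In CFPAC-1 with IKE 1 was higher (1.37%, against 0.864% of all genes) and 3 lower (4.11%, against 0.459%). In PANC-1 with IKE 0 were higher (against 1.21%) and 3 lower (4.11%, against 1.17%). The fallen genes in CFPAC-1 were CCNA2, which encodes cyclin A and is also among the mitosis markers (24.4 and 24.6 FPKM with IKE, against 35.5 and 31.4 FPKM with DMSO; log2 fold change -0.43, adjusted p = 0.0174, limma), CLSPN and NME1. The checkpoint gene CLSPN measured 6.62 and 4.83 FPKM with IKE, against 10.3 and 9.36 FPKM with DMSO (-0.70, adjusted p = 0.0208). The nucleotide kinase gene NME1 measured 92.5 and 91.2 FPKM with IKE, against 112 and 114 FPKM with DMSO (-0.30, adjusted p = 0.0382). The gene that rose was CDKN2B, which encodes the CDK4 and CDK6 inhibitor p15, with 3.68 and 4.00 FPKM with IKE, against 2.63 and 2.45 FPKM with DMSO (0.45, adjusted p = 0.0393). In PANC-1 CCNA2 fell as well, with 21.4, 21.3, 21.5 and 22.2 FPKM with IKE, against 29.2 and 27.6 FPKM with DMSO (-0.38, adjusted p = 0.0148). The polymerase epsilon subunit gene POLE2 measured 12.0, 10.6, 11.4 and 11.5 FPKM with IKE, against 14.2 and 14.8 FPKM with DMSO (-0.33, adjusted p = 0.0419). TOPBP1, which helps activate the helicase, measured 39.1, 37.5, 41.4 and 41.2 FPKM with IKE, against 48.7 and 48.3 FPKM with DMSO (-0.28, adjusted p = 0.0451). In these called genes of the list the groups did not overlap. The counts depended on single libraries. Genes called lower in CFPAC-1 numbered 0 or 1 when any of its own 4 libraries was left out. In PANC-1 they numbered 6 when IKE replicate 2 was left out, and 0 or 1 when either DMSO library, IKE replicate 1 or 4, or any CFPAC-1 library was. The count of higher genes in CFPAC-1 held at 1 when PANC-1 IKE replicate 2 was left out, and was 0 when any of the other 9 libraries was.

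Between the lines with DMSO, 56 of these 73 genes were higher in PANC-1 (76.7%, against 43.4% of all genes) and 8 lower (against 35.2% of all genes). CDKN2A, which encodes the CDK4 and CDK6 inhibitor p16, measured 1.55 and 2.01 FPKM in PANC-1, against 45.7 and 35.7 FPKM in CFPAC-1 (log2 fold change -3.90, adjusted p = 8.60e-10, limma). CDKN2B measured 0.05 and 0.03 FPKM in PANC-1, against 2.63 and 2.45 FPKM in CFPAC-1 (-1.77, adjusted p = 7.39e-09). TOPBP1 was higher in PANC-1, with 48.7 and 48.3 FPKM, against 17.4 and 16.5 FPKM in CFPAC-1 (1.47, adjusted p = 4.76e-09). The thymidylate kinase gene DTYMK measured 42.4 and 40.4 FPKM in PANC-1, against 11.2 and 13.96 FPKM in CFPAC-1 (1.65, adjusted p = 5.20e-08).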

How the data were processed

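Per the labels' protocols, rRNA was removed from Trizol-extracted RNA, and the second cDNA strand was digested before amplification. The submitters' processing notes name StringTie 1.3.4, HISAT2 2.1.0, Bowtie2 2.2.8, fastp 0.18.0, DESeq2 and the build GRCh38. The sources used here do not give what each tool did, the annotation or the use of strand. The authors deposited FPKM values, per the file headers, and 9 further columns were empty and not used. Without counts, no counting error can be given.

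Symbols were matched to 20257 of 20289 Ensembl genes, and gene coordinates are from GENCODE 29. Testing required 1 FPKM or more in 2 or more libraries, and log2(FPKM + 1) was fitted with limma 3.58.1 in R 4.3.3, a mean per group over all 10 libraries with an intensity trend. Tests were two-sided, with Benjamini-Hochberg adjustment over all 13077 genes and a threshold of 0.05. All p-values for genes are limma's. The labels call the replicates bioreplicates but do not say whether they came from separate cultures. The p-values then reflect only how these samples spread, which may be technical. The fit was also run on simulated data, with noise drawn separately for each gene and library. Deviations shared by a whole library were therefore not covered.

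The members and lists were chosen with earlier results of these data known. Values by library are given for called members, for the member with the smallest p of each role in each IKE comparison, for up to 6 called members in each direction between the lines, and for up to 4 called genes of the further list in each comparison. ORC6, GMNN, MCM7, GINS4, POLE, POLA2, CCND1, CDK4 and CDC6, and values of named members in other comparisons, were added after their values were seen.

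The alternatives were the replicate number as a block, each library left out, a separate fit for each line, PANC-1 with only IKE replicates 1 and 2, median-ratio scaling, quantile normalization, a pseudocount of 0.1, and a low-value filter of 5 FPKM or none. PANC-1 IKE replicates 3 and 4 alone was added after seeing the data. Left out were set tests and, for want of counts, tests on counts.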

Additional observations from a re-analysis of the deposited data

Results flagged for a closer look

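In PANC-1 with IKE, the only group of 4 libraries, 2 of the 44 genes had a library far from the others of the group, measured by its gap to the nearest library over the whole range, where chance flags about 1 gene in 20. TK1 stood at 53.7 FPKM in replicate 2, with the other three at 43.8 to 45.4 FPKM. FEN1, the flap endonuclease gene, stood at 45.5 FPKM in replicate 2, with the other three at 38.9 to 40.0 FPKM. Replicate 2 also had the highest FPKM total of the series, 472665. Without it the log2 fold change of TK1 was -0.48 with an adjusted p of 0.00514 (limma; 0.00514 to 0.267 over the alternatives).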

How the results depend on the processing

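Members called lower in PANC-1 with IKE, 1 as reported, numbered 0 with IKE replicates 1 and 2 alone (0.506% of all genes called lower, against 1.17% as reported) and 0 with no low-value filter (0.589%), 3 with quantile normalization (PCNA, RRM1 and TK1; 1.25%) and 6 with IKE replicates 3 and 4 alone (E2F1, MCM3, PCNA, POLD1, TK1 and TYMS; 2.1%). In CFPAC-1 with IKE, 2 members were called lower with PANC-1 IKE replicates 3 and 4 alone (RRM2 and TYMS; 0.621% of all genes) and 1 higher with quantile normalization (CDT1; 1.22%). Between the lines, 5 members were lower with median-ratio scaling and with quantile normalization, adding CDC6 and LIG1, and the median log2 fold change was 0.68 with median-ratio scaling, 0.77 with quantile normalization and 0.85 with a pseudocount of 0.1. Of the further list, genes higher in CFPAC-1 with IKE numbered 0 with PANC-1 IKE replicates 1 and 2 or 3 and 4 alone, with at least 5 FPKM, with a fit per line and with a pseudocount of 0.1, and 2 with quantile normalization. Its genes lower in PANC-1 with IKE numbered 0 with IKE replicates 1 and 2 alone, 5 with replicates 3 and 4 alone and 1 with a fit per line, and 1 was lower in the difference of responses with no low-value filter. The cause of these changes was not tested.

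With 1 library left out at a time, limma called 0 to 5 members lower in PANC-1 (0.0536% to 2.28% of all genes), 0 to 1 lower (0.123% to 0.797%) and 0 to 1 higher (0.491% to 1.16%) in CFPAC-1, and of the further list 0 to 6 lower in PANC-1 and 0 to 3 lower and 0 to 1 higher in CFPAC-1. The members' median ran from 0.80 to 0.86 between the lines and from -0.073 to -0.010 for the difference of responses. TK1 in CFPAC-1, not called, was at 0.024 without CFPAC-1 IKE replicate 2, in a range of -0.13 to 0.024.

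No shared deviation by replicate number was seen: deviations of same-numbered libraries correlated at -0.00145 in CFPAC-1 and 0.0495 in PANC-1. Whether same-numbered samples shared a culture or day is not in the labels. With the replicate number as a block, 0 members were called lower in PANC-1, where 0.405% of all genes were (TK1 adjusted p = 0.148, limma, in a range of 0.00514 to 0.267), and of the further list 0 were higher and 1 lower in CFPAC-1 and 0 lower in PANC-1.

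Groups of 2 libraries limit precision: the median half-width of the members' 95% confidence intervals was 0.21 in CFPAC-1 and 0.18 in PANC-1 on the log2 scale. Depth is unknown.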

Other observations

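PANC-1 IKE replicates 3 and 4 carry numbers that no DMSO library has. In 12 of 44 genes (MCM2, MCM3, MCM5, CDT1, GMNN, GINS3, ORC6, PCNA, RFC4, POLD1, TYMS and CDK4) both lay below replicates 1 and 2, against 22.6% of all tested genes, and in 6 both lay above, against 16.7%. As shares of the 44, both counts were close to those of all genes, so they do not mark these genes out. The replicates of 1 group were given no test.

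Genes with and without E2F letters in a promoter window had similar medians of the log2 fold change. They were -0.13 over 20 genes with the letters and -0.16 over 17 without in PANC-1 with IKE, -0.09 and -0.09 in CFPAC-1 with IKE, and 0.74 and 0.85 for PANC-1 against CFPAC-1 with DMSO. No test was run on these medians.

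The ratio of mean CDK4 to mean CDK6 was 5.70 in PANC-1 with IKE, against 4.80 in PANC-1 with DMSO, and 1.56 in CFPAC-1 with IKE, against 1.24 in CFPAC-1 with DMSO. Neither gene was called with IKE in either line. PANC-1 IKE replicate 2 had the highest CDK4 and the lowest CDK6 of its group, at 100.04 and 12.6 FPKM. In the other IKE libraries of PANC-1 CDK6 was 16.3 to 17.5 FPKM, against 17.4 and 16.9 FPKM with DMSO.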
